A study of Mus musculus with 9 samples.

Results

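Chromatin and DNA methylation regulators were followed through a cycle of PU.1 suppression, release and renewed suppression in a mouse acute myeloid leukaemia line. The set holds 37 genes, named by symbol, out of the 27179 gene entries counted in each library. They comprise 8 DNA methylation enzymes and metabolic partners, 8 Polycomb genes and partners, 6 genes of the KMT2, menin and Dot1l group, 2 other lysine methyltransferases, 3 lysine demethylases, 3 acetyltransferases, 3 deacetylases and 4 remodellers and other genes. All 37 matched a single Entrez gene entry and all 37 were among the 12004 genes that passed the filter on low counts.

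The cells were AML246, a line on the C57BL/6 background that lacks p53 and carries shPU.1, a short hairpin against the myeloid transcription factor PU.1 (gene Spi1), and every group shared both features and growth in IL3. Clones 1, 2 and 4 each arose from a single sorted cell, so the 3 libraries of a group come from 3 clones of 1 line. Washed cells had 14 days of doxycycline and then 14 days without it and were sorted as GFPhigh. Doxycycline cells had 14 days of the drug and were sorted as GFPoff, and untreated cells were sorted as GFPhigh, so drug and sorting gate change together. Clones served as biological replicates, giving 9 libraries.

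DNA methylation is written by the DNMT enzymes and removed stepwise by the TET dioxygenases, which need alpha-ketoglutarate, the product of the isocitrate dehydrogenases Idh1 and Idh2. Polycomb complexes place repressive histone marks, while the KMT2 enzymes mark active promoters and enhancers, CREBBP and EP300 acetylate enhancers, and HDAC enzymes reverse acetylation. Many of these genes, among them DNMT3A, TET2, IDH1, IDH2, ASXL1 and EZH2, are recurrently mutated in human myeloid leukaemia.

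Library totals ran from 7408118 to 9803258 counts. Spi1 had 23.9 to 52.0 CPM in washed, 156 to 197 CPM in doxycycline and 23.7 to 48.1 CPM in untreated libraries (CPM, read counts relative to the TMM-scaled library size), so its range in doxycycline lay above the range in both other groups. Of 12 myeloid identity genes all 12 were detected above the filter, with summed levels of 1860 to 3945 CPM in washed, 3141 to 4065 in doxycycline and 1934 to 2269 in untreated libraries. Their log2 fold changes in doxycycline against untreated ran from -2.82 to 4.75, with 8 of the 12 positive. Csf2rb made up much of the sum, averaging 837 CPM in clone 1, 1878 in clone 2 and 1877 in clone 4. The 12 neutrophil maturation genes summed to 85.3 to 120.1 CPM in washed, 1149 to 3068 in doxycycline and 71.8 to 169.9 in untreated libraries. Of the markers of other lineages 1 of 5 B cell genes (Cd79b), 1 of 5 T cell genes (Cd3g), 2 of 5 erythroid genes (Hba-a1 and Klf1) and 1 of 6 stromal genes (Pdgfrb) passed the filter, and Pax5, Cd4, Col1a2 and Dcn stood at 0 counts in all 9 libraries. The T cell list summed to 8.38 to 210.9 CPM in washed, 8.74 to 38.8 in doxycycline and 83.5 to 164 in untreated libraries. The stromal list summed to 86.5 to 168.1 CPM in washed, 94.7 to 122.5 in doxycycline and 135.7 to 157.1 in untreated libraries. The B cell and erythroid lists each stayed at or below 8.44 CPM. In untreated clone 1, 21.98% of counts lay on 1 entry without a gene symbol, against 0.153% to 1.64% elsewhere, so results are also given without that library.

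Measured per transcript length, the 37 regulators covered a wide range. Chd4, the ATPase of the NuRD remodelling complex, was highest at 101 RPKM (RPKM, the TMM-scaled CPM per kilobase of deposited gene length), averaged over the 9 libraries. Idh2 (65.1 RPKM), Suz12 (55.6 RPKM), Hdac2 (54.1 RPKM), Hdac3 (47.8 RPKM) and Idh1 (47.7 RPKM) followed. Tet1 was lowest at 0.397 RPKM, below Dnmt3b at 2.14 RPKM and Tet2 at 3.26 RPKM. Between neighbours such as Hdac3 and Idh1 the averages lie closer together than the spread between libraries.

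**Figure D1:**
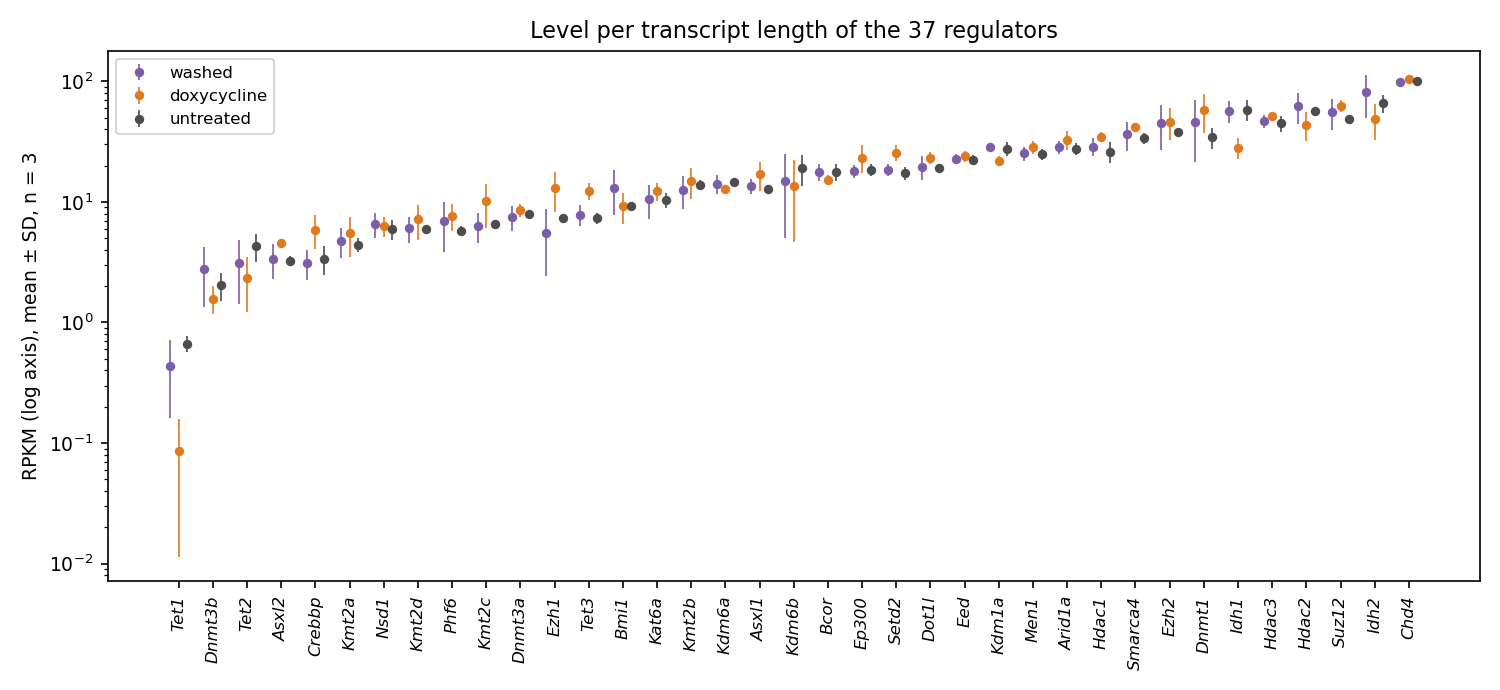
Level of each of the 37 regulators in RPKM on a log axis, as mean and SD over 3 clones, for washed, doxycycline and untreated cells, ordered by the mean over 9 libraries. Chd4 is highest at 101 RPKM and Tet1 lowest at 0.397 RPKM; Idh1 and Tet1 have their lowest group mean in doxycycline.

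With doxycycline, 2 of the 37 regulators passed an adjusted p of 0.05 against untreated cells, Idh1 downwards and Tet3 upwards, against 10.9% of all genes tested (edgeR's quasi-likelihood test, Benjamini-Hochberg over 12004 genes), of which 6.57% were higher and 4.35% lower. With the clone as a block 5 passed, Tet3, Setd2 and Crebbp higher and Tet1 and Idh1 lower, against 24.8% of all genes, 13% higher and 11.7% lower. After washout 1 regulator, Idh1, was higher than in doxycycline, against 9.66% of all genes (3.64% higher and 6.02% lower), and with the block 6 passed, against 22.9% (10.4% higher and 12.4% lower): Idh1, Idh2 and Tet1 higher and Tet3, Ezh1 and Crebbp lower. In each of these counts the share of regulators called was below that of all genes. The calls made with the block and not without it for Tet1, Tet3, Setd2, Crebbp, Ezh1 and Idh2 were each lost without clone 2 and without clone 4 (adjusted p = 0.0734 to 0.261). Without untreated clone 1 the block no longer called Setd2 (adjusted p = 0.105) or Crebbp (adjusted p = 0.107) in doxycycline, and it newly called Ezh1 (log2 fold change 1.19, adjusted p = 0.0147), Idh2 (-0.65, 0.0473) and Hdac2 (-0.59, 0.0359), 6 regulators in all. After washout it then called 9, with Dnmt3b, Bmi1 and Hdac2 added. Of all genes, the block called 2414 of 12309 in doxycycline and 3561 after washout there. Without washed clone 1 the block no longer called Idh2 after washout (adjusted p = 0.0529). It then called 12 regulators in doxycycline and 10 after washout, beside 4732 and 3820 of 12261 genes. Without clone 1 altogether the block called 13 and 16, beside 4117 and 4325 of 12143 genes. There the share of regulators called was above that of all genes. The regulators called only when clone 1 or its washed library was left out of the block were Dnmt1, Tet2, Asxl1, Asxl2, Kmt2c, Dot1l, Kdm1a, Kdm6b, Ep300, Kat6a and Smarca4. These contrasts share the doxycycline libraries, so their mirrored values are not separate evidence.

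The typical regulator moved little. The median absolute log2 fold change of the 37 was 0.33 for doxycycline against untreated, beside 0.41 over all tested genes, and 29 of the 37 regulators (78.4%) stayed within 1.5-fold, beside 64.4% of all genes. For washed against doxycycline it was 0.25, beside 0.40 over all genes, with 29 of 37 again within 1.5-fold. The signed median was 0.25 in doxycycline, with 26 of 37 positive, beside 0.00 over all genes, and -0.18 after washout, with 12 of 37 positive, beside 0.04. With scaling by library size alone the median of all genes in doxycycline moved to 0.23 and that of the regulators to 0.45, and 75.6% of all called genes were then higher, beside 60.2% with TMM.

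**Figure D2:**
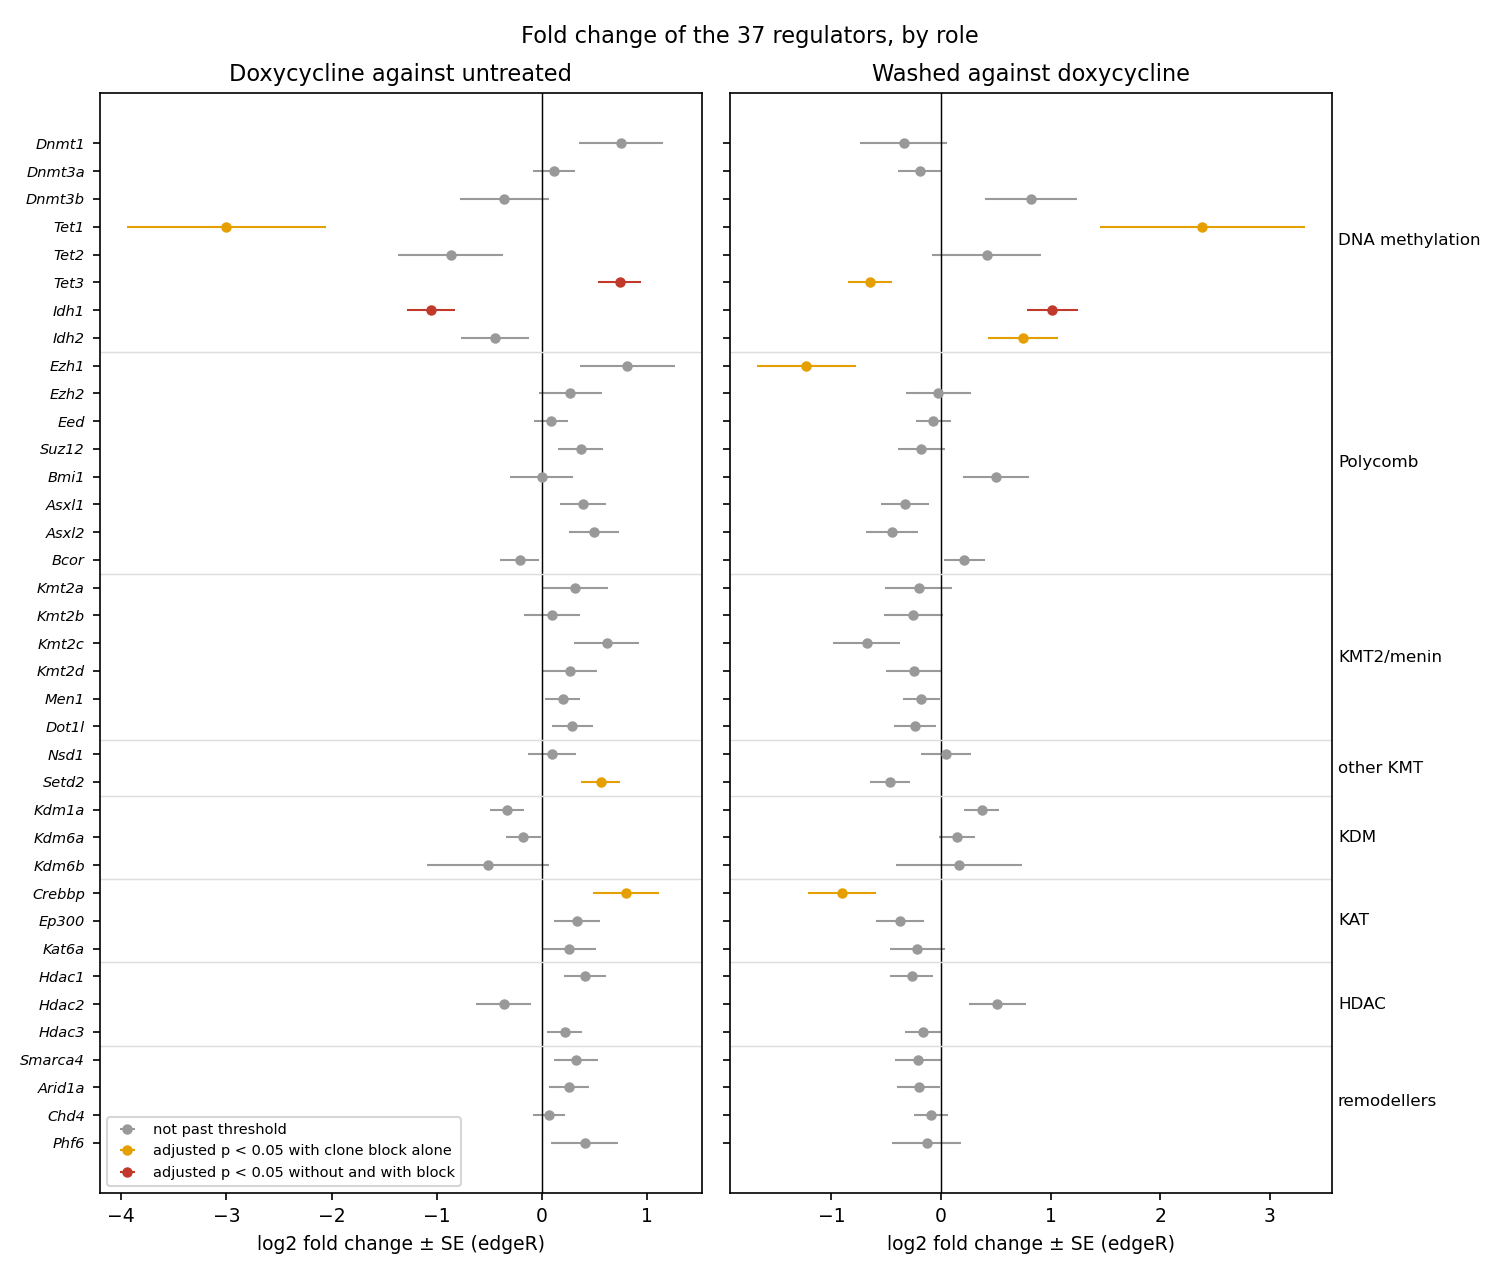
Log2 fold change with SE from edgeR for the 37 regulators grouped by role, doxycycline against untreated on the left and washed against doxycycline on the right. Idh1 lies at -1.06 and 1.02 and passes the threshold without and with the clone as a block in both contrasts; most other genes lie within 1 unit of 0.

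Idh1, the cytosolic and peroxisomal isocitrate dehydrogenase (Entrez gene 15926, chromosome 1, 65158616 to 65186479 on GRCm38), had 108, 141 and 166 CPM in washed clones 1, 2 and 4, 61.5, 59.5 and 83.8 CPM in doxycycline, and 126, 127 and 173 CPM in untreated clones. Every doxycycline library was below every washed and every untreated library. Idh1 fell to 68.3 ± 13.5 CPM in doxycycline, against 142 ± 26.9 CPM in untreated cells (SD, n = 3 each), a log2 fold change of -1.06 ± 0.23 SE with an edgeR adjusted p of 0.0211. Within the clones the log2 ratio was -1.04 in clone 1, -1.09 in clone 2 and -1.05 in clone 4, nearly the same in each. After washout Idh1 averaged 138 ± 29.1 CPM, higher than the doxycycline mean by a log2 fold change of 1.02 ± 0.23 SE (adjusted p = 0.0265). The doxycycline call was lost without any 1 clone (adjusted p = 0.0508, 0.135 and 0.193 without clones 1, 2 and 4), without any single untreated library or doxycycline clone 1 or 2 (adjusted p = 0.0591 to 0.0727) and with scaling by library size alone (log2 fold change -0.84, adjusted p = 0.111). Fitted with the block, Idh1 kept an adjusted p of 0.00537 when untreated clone 1 was dropped, but had 0.0623 when clone 4 was dropped. The washout call was lost without clone 2 or 4, without doxycycline clone 1 or 2 or washed clone 2 or 4 alone, with library size alone and with the 2 groups alone (adjusted p = 0.0550 to 0.223).

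Tet3, a TET dioxygenase (Entrez gene 194388, chromosome 6, 83362373 to 83457208), had 94.6, 66.5 and 95.9 CPM in washed clones, 109, 143 and 150.1 CPM in doxycycline and 75.2, 76.1 and 90.05 CPM in untreated clones. The doxycycline libraries lay above all libraries of both other groups. Tet3 rose with doxycycline, to 134 ± 21.7 CPM against 80.4 ± 8.34 CPM in untreated cells (log2 fold change 0.74 ± 0.20 SE, adjusted p = 0.0471). For washed against doxycycline the log2 fold change was -0.65 ± 0.20 SE (adjusted p = 0.0769, 0.0318 with the clone as a block). The rise was lost without any 1 clone (adjusted p = 0.0772 to 0.363), without any single untreated or doxycycline library (adjusted p = 0.0509 to 0.167), without washed clone 4 (adjusted p = 0.0667), with limma voom (adjusted p = 0.0563), with no filter on low counts (adjusted p = 0.0621) and with scaling by library size alone (adjusted p = 0.0649).

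Promoter windows of these 2 genes are printed because they are the regulators called without the block. They run from 250 bases before to 50 after an annotated start (RefSeq, GRCm38.p6), all on the minus strand, and capitals mark GAGGAA on either strand (TTCCTC on the other), a purine-rich core bound by PU.1 and related ETS factors.
Idh1, upstream start, chr1:65186430-65186729: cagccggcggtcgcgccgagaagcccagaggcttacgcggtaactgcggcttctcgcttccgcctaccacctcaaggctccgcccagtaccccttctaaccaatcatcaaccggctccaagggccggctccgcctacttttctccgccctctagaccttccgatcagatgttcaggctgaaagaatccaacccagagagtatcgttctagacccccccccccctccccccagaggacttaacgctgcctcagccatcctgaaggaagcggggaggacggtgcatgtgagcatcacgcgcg
Idh1, downstream start, chr1:65179093-65179392: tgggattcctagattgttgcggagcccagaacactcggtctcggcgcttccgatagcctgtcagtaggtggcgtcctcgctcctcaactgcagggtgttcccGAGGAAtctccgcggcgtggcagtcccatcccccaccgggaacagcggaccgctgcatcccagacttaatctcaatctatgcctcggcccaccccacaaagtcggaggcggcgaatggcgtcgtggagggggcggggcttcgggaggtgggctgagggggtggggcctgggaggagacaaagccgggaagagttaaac
Tet3, chr6:83441629-83441928: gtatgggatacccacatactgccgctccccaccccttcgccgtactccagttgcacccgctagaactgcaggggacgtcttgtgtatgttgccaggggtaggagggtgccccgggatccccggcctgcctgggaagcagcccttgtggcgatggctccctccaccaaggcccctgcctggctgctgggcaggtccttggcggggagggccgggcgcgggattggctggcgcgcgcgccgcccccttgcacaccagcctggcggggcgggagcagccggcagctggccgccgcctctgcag
The downstream Idh1 window holds 1 match, and the upstream Idh1 window and the Tet3 window hold 0. The Tet3 window lies inside the gene span given above, so the outermost start of Tet3 was not examined. Windows of 30 of the regulators were counted, 40 windows in all. No window was found for Kmt2b, Kdm6b, Hdac1, Nsd1, Kat6a or Phf6. Hdac3 was left out of the count, so the values for the regulators do not cover it. Of the 40 windows 12 held the motif (30.0%), beside 28.3% of all 32851 windows. The Men1 windows with the motif overlap each other, as do those of Dnmt3a, so the 12 are not separate sites throughout. All windows include those of genes that did not pass the filter on low counts, whereas every regulator passed it. Windows of the regulators had a median of 25 CpG dinucleotides and 66.6% G and C bases, beside 7 and 52.7% over all windows.

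Tet1, the TET enzyme best known from embryonic stem cells, had few reads. It had 1.75, 7.72 and 9.05 CPM in washed clones 1, 2 and 4, 0, 1.85 and 1.74 CPM in doxycycline, from 0, 14 and 18 counts, and 7.89, 10.6 and 9.76 CPM in untreated clones, from 43, 84 and 79 counts. In doxycycline clone 1, 0 counts allow a level of up to 0.265 CPM (3 counts, counting error only). All doxycycline libraries lay below all untreated ones, while washed clone 1 lay between doxycycline clones 4 and 2. In the edgeR fit of all libraries the difference of Tet1 in doxycycline from untreated was -3.0 ± 0.94 SE on the log2 scale with an adjusted p of 0.07498, and with the clone as a block Tet1 fell (log2 fold change -3.33, adjusted p = 0.0115). It also passed without a block in DESeq2 (adjusted p = 0.00632), with the 2 groups alone (0.0428), without clone 1 (0.0126) and without washed clone 1 (0.0270). For washed against doxycycline the log2 fold change was 2.38 ± 0.93 SE (adjusted p = 0.146, and 0.0347 with the block), and the call was also made without a block in DESeq2 (adjusted p = 0.0422), without clone 1 (0.0154) and without washed clone 1 (0.0478).

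Tet2, the TET gene most often mutated in myeloid leukaemia, was uneven between clones. It had 10.9, 35.2 and 40.4 CPM in washed clones, 12.6, 33.1 and 19.2 CPM in doxycycline and 44.2, 46.3 and 27.6 CPM in untreated clones. The groups overlapped, and the log2 fold change of -0.87 ± 0.50 SE for doxycycline against untreated missed the threshold (adjusted p = 0.299). The log2 ratio of doxycycline to untreated was -1.81 in clone 1, -0.49 in clone 2 and -0.52 in clone 4.

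**Figure D3:**
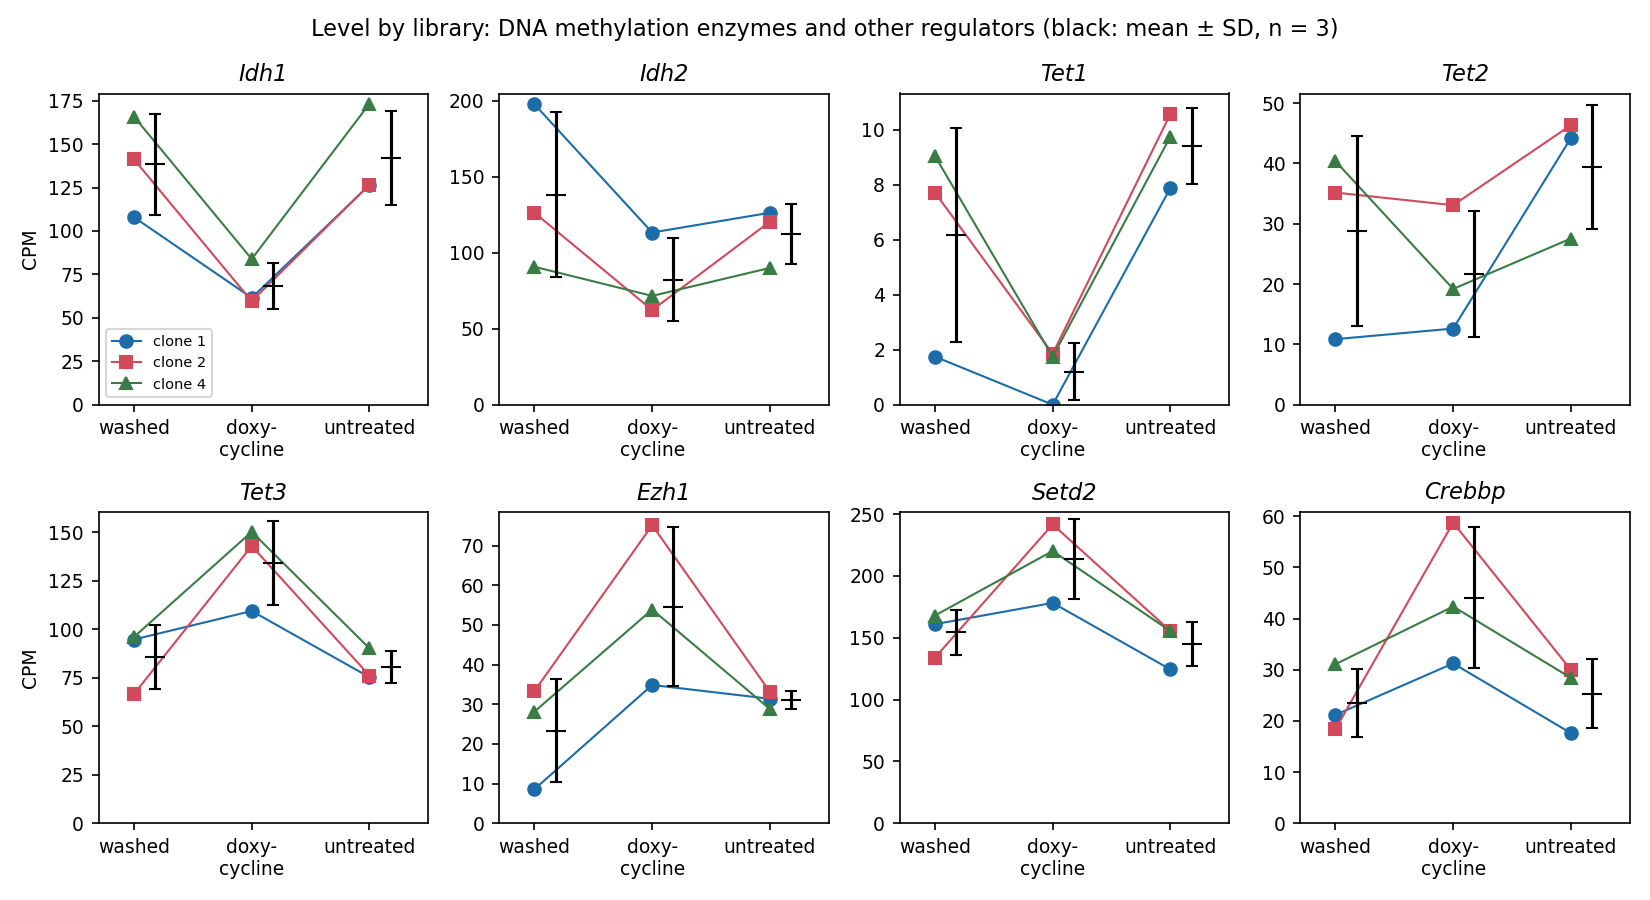
CPM in each library for 8 regulators in washed, doxycycline and untreated cells, with a colour and line for each clone and the mean and SD (n = 3) in black. In every clone Idh1 is lowest and Tet3 highest in doxycycline; Tet1 is 0 in doxycycline clone 1.

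Idh2, the mitochondrial isocitrate dehydrogenase, had 198, 126 and 90.7 CPM in washed clones, 113, 62.2 and 71.5 CPM in doxycycline and 126, 120.4 and 89.9 CPM in untreated clones. Doxycycline was lowest within each clone, while washed and doxycycline libraries of different clones overlapped. After washout Idh2 was higher than in doxycycline with the block (log2 fold change 0.72, adjusted p = 0.0307) and not without (0.75 ± 0.32 SE, adjusted p = 0.18). Against untreated cells doxycycline gave -0.45 ± 0.32 SE (adjusted p = 0.411).

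The 3 DNA methyltransferases did not pass in the edgeR fits of all 9 libraries, without or with the block. Dnmt1, which copies methylation at replication, had 455, 156 and 255 CPM in washed clones, 482, 228 and 387 CPM in doxycycline and 209.7, 177 and 264 CPM in untreated clones (doxycycline against untreated, log2 fold change 0.75 ± 0.40 SE, adjusted p = 0.261). Dnmt3a, a de novo methyltransferase, averaged 73.3 ± 17.0 CPM in washed, 83.8 ± 10.03 CPM in doxycycline and 77.7 ± 5.25 CPM in untreated cells (adjusted p = 0.768 for doxycycline against untreated). Dnmt3b, its relative, was low, at 18.8, 6.37 and 11.1 CPM in washed, 7.85, 4.76 and 7.85 CPM in doxycycline and 10.6, 6.17 and 9.64 CPM in untreated clones. Its log2 fold change for washed against doxycycline was 0.82 ± 0.42 SE (adjusted p = 0.251). Fits with the block on fewer libraries called Dnmt1 in both contrasts without clone 1 (adjusted p = 0.0190 in doxycycline and 0.00643 after washout) and without washed clone 1 (0.0120 and 0.0288). Dnmt3b passed after washout with the block without untreated clone 1 (adjusted p = 0.0481) or with the length trend removed (0.0429).

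Among Polycomb genes the paralogous methyltransferases Ezh1 and Ezh2 gave different values. Ezh1, the form known from slowly dividing cells, had 8.56, 33.3 and 28.1 CPM in washed clones, 34.9, 75.2 and 53.9 CPM in doxycycline and 31.4, 33.1 and 28.8 CPM in untreated clones. Doxycycline libraries were above all others. Ezh1 fell after washout relative to doxycycline with the block (log2 fold change -1.30, adjusted p = 0.0253; -1.23 ± 0.45 SE and adjusted p = 0.123 without). Its doxycycline difference from untreated, 0.81 ± 0.45 SE, missed the threshold without and with the block (adjusted p = 0.279 and 0.142), but without untreated clone 1 the blocked value was 1.19 (adjusted p = 0.0147) and without clone 1 the value with no block was 1.06 (0.0459). Ezh2, the form of dividing cells, averaged 120.7 ± 49.0 CPM in washed, 123 ± 36.0 CPM in doxycycline and 102 ± 5.19 CPM in untreated cells, with overlapping groups (doxycycline against untreated 0.27 ± 0.30 SE, adjusted p = 0.610).

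The other Polycomb members did not pass in all 9 libraries, without or with the block. Asxl2, which activates the deubiquitinase BAP1, had 38.8, 19.7 and 31.1 CPM in washed, 38.3, 41.4 and 42.5 CPM in doxycycline and 30.5, 25.8 and 30.5 CPM in untreated clones, a log2 fold change of 0.49 ± 0.24 SE in doxycycline against untreated cells (adjusted p = 0.222). Bmi1, a subunit of the ubiquitinating Polycomb complex, had 67.9, 32.6 and 40.01 CPM in washed, 42.9, 23.8 and 32.7 CPM in doxycycline and 32.3, 31.4 and 36.2 CPM in untreated clones. Its washed clone 1 library stood above the other 8. Eed, Suz12, Asxl1 and Bcor, core subunits, an Asxl2 relative and a corepressor, gave log2 fold changes between -0.21 and 0.39 in doxycycline.

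Dnmt1, Ezh2, Suz12 and Phf6, picked after their values were seen, were highest in the same libraries as the proliferation genes. How many of the other regulators do so was not counted. The 16 proliferation genes summed to 4708, 1710 and 2289 CPM in washed clones 1, 2 and 4, 4459, 1968 and 3539 CPM in doxycycline and 2497, 1929 and 2404 CPM in untreated clones. In washed clone 1, doxycycline clone 1 and doxycycline clone 4, the highest for that sum, Dnmt1 had 455, 482 and 387 CPM and Ezh2 had 177, 159 and 121 CPM. Phf6, a chromatin protein mutated in leukaemia, had 45.5, 40.9 and 34.4 CPM there and 19.9 to 27.5 CPM in the other 6 libraries. Of the 16 proliferation genes 0 passed in doxycycline without the block and 2 with it, Mki67 and Mcm3, both higher. The part of this difference in the values of the 4 regulators was not tested.

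**Figure D4:**
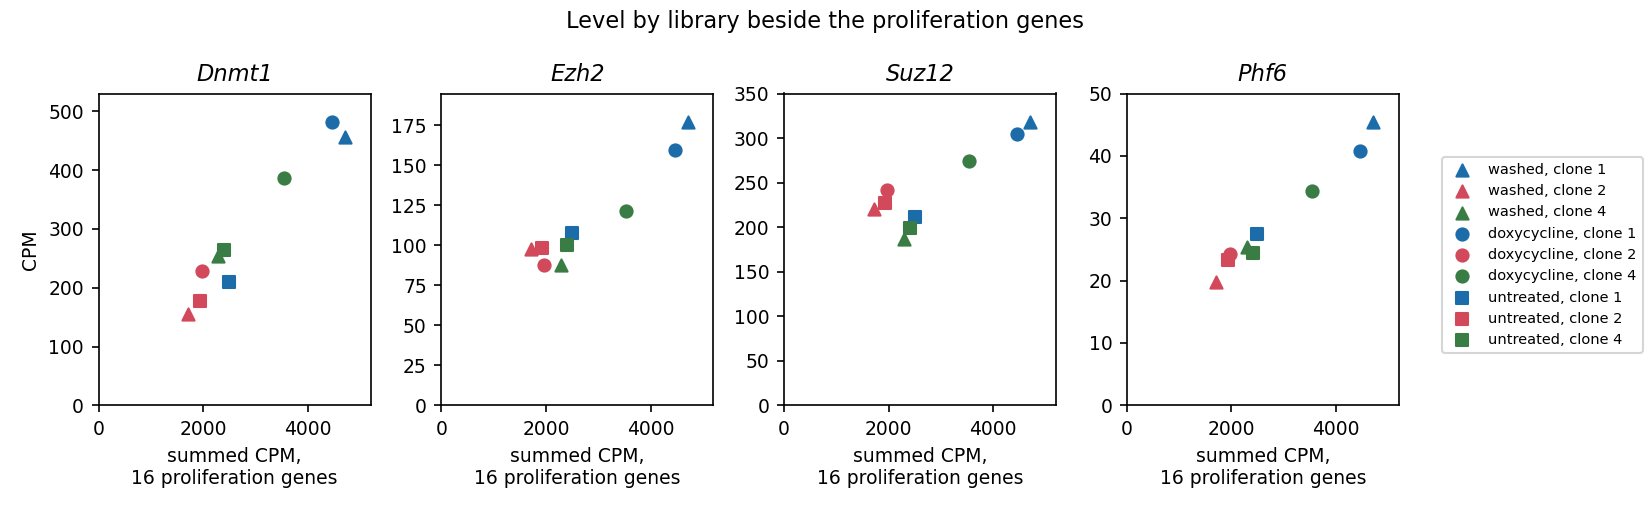
CPM of Dnmt1, Ezh2, Suz12 and Phf6 in each of the 9 libraries against the summed CPM of 16 proliferation genes in the same library, with a colour for each clone and a symbol for each condition. Washed and doxycycline clone 1, at 4708 and 4459 summed CPM, hold the 2 highest values of each of the 4 genes.

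The KMT2, menin and Dot1l group gave different values in different clones. Of its 6 genes (Kmt2a, Kmt2b, Kmt2c, Kmt2d, Men1 and Dot1l) 0 passed in doxycycline or after washout. This was so without the block (10.9% and 9.66% of all genes) and with it (24.8% and 22.9%). At an unadjusted p under 0.05 without the block there were also 0, beside 27.2% and 26% of all genes. Log2 fold changes in doxycycline against untreated ran from 0.10 for Kmt2b to 0.61 for Kmt2c. Kmt2c, an enhancer methyltransferase, had 85.5, 93.3 and 139.9 CPM in washed, 101, 238 and 171 CPM in doxycycline and 105, 108 and 121 CPM in untreated clones (doxycycline against untreated 0.61 ± 0.31 SE, adjusted p = 0.232). In clone 2 all 6 genes had a positive log2 ratio of doxycycline to untreated, with a median of 0.65, in clone 4 5 of 6 with a median of 0.21, and in clone 1 2 of 6 with a median of -0.15. Kmt2a, the gene rearranged in human leukaemia, gave -0.43, 0.85 and 0.31 in clones 1, 2 and 4. For Kmt2b the washed libraries had 81.8, 92.4 and 142 CPM, the doxycycline libraries 90.5, 163 and 124 CPM and the untreated libraries 108, 115 and 130.3 CPM. A test of unequal response between clones, with washed and untreated libraries pooled against doxycycline, called 0 of the 37 regulators and 0% of all genes with edgeR. The regulators with an unadjusted p under 0.05 in it were Kmt2a, Kmt2d and Kmt2c, 3 of 37 beside 3.39% of all genes, and 0 with scaling by library size alone.

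Values by gene length are given beside that difference, and the part of length in it was not tested. The regulators are long, with a median deposited length of 6438 bases beside 2751 bases for all tested genes, and 26 of the 37 are among the 3001 longest of the 12004. Across the 37 regulators, which share libraries, the rank correlation of length with the log2 ratio of doxycycline to untreated was -0.22 in clone 1, 0.51 in clone 2 and 0.14 in clone 4, and across 12004 genes it was 0.09, 0.19 and 0.17, similar in clones 2 and 4. The regulators include the 6 KMT2, menin and Dot1l genes. With the length trend of each library removed, the group's median log2 ratio of doxycycline to untreated was 0.06 in clone 1, 0.32 in clone 2 and 0.10 in clone 4, so the sign in clone 1 turned and clone 2 stayed highest. For washed against doxycycline in clone 2 the rank correlation of length with the log2 ratio, without that removal, was -0.54 across the regulators and -0.29 across all genes. With the length trend of each library removed, Idh1 and Tet3 still passed in doxycycline with edgeR (adjusted p = 0.0176 and 0.0321).

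**Figure D5:**
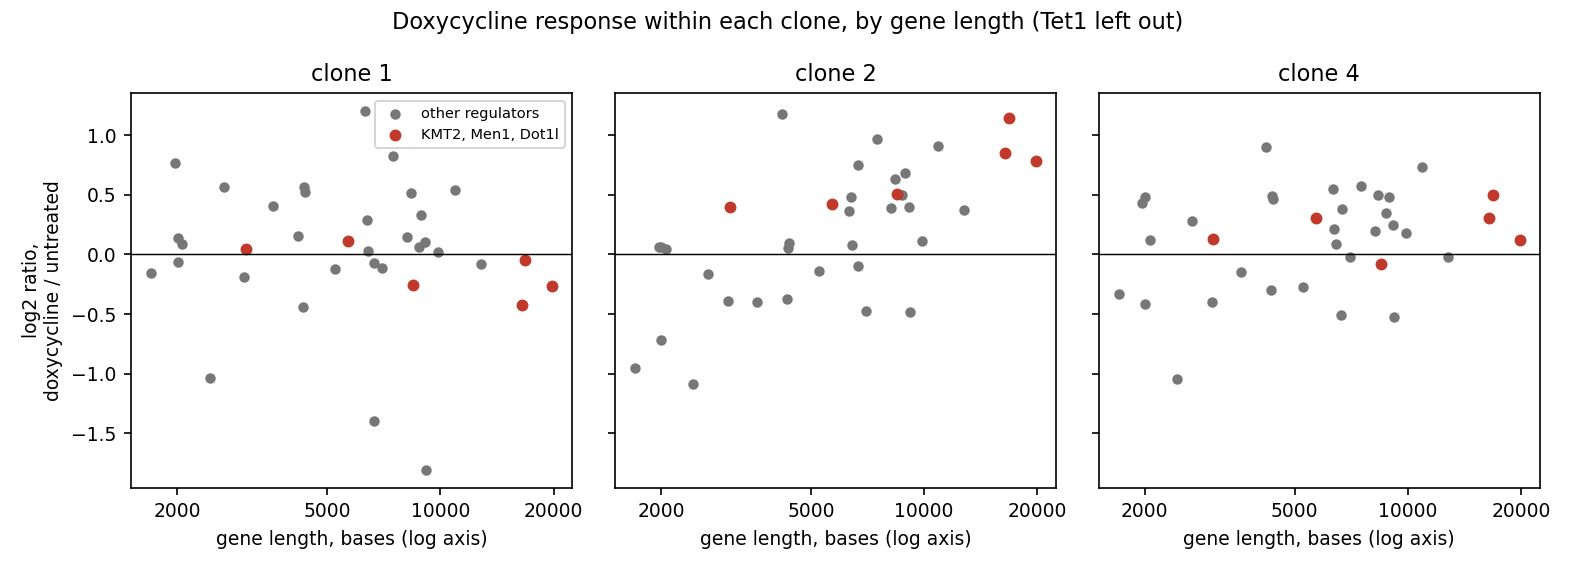
Log2 ratio of doxycycline to untreated CPM within clones 1, 2 and 4 against gene length in bases on a log axis, for the regulators other than Tet1, with the 6 KMT2, menin and Dot1l genes in red. Kmt2a, Kmt2c and Kmt2d, at the right edge, lie above 0 in clone 2 and below 0 in clone 1.

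Setd2 and Crebbp were higher in doxycycline with the clone as a block. These calls were lost without clone 2, without clone 4 and without untreated clone 1. With no block, DESeq2 gave an adjusted p of 0.0403 for Setd2 and 0.103 for Crebbp in doxycycline. Setd2, the histone methyltransferase that acts along transcribed genes, had 161, 134 and 168 CPM in washed, 178, 242 and 220.2 CPM in doxycycline and 124, 156 and 155 CPM in untreated clones. Each doxycycline library exceeded all washed and untreated ones. The log2 fold change in doxycycline was 0.56 ± 0.18 SE (adjusted p = 0.0869, 0.0410 with the block). Crebbp, the acetyltransferase CBP, had 21.2, 18.4 and 31.1 CPM in washed, 31.2, 58.7 and 42.4 CPM in doxycycline and 17.6, 30.0 and 28.4 CPM in untreated clones. Groups did not overlap, though doxycycline clone 1 stood only just above washed clone 4. Its log2 fold change was 0.79 ± 0.31 SE in doxycycline (adjusted p = 0.137, 0.0452 with the block) and -0.90 ± 0.31 SE after washout (adjusted p = 0.104, 0.0356 with the block). Ep300, its paralog, gave 0.33 ± 0.22 SE in doxycycline (adjusted p = 0.362), Kat6a, another acetyltransferase, 0.25 ± 0.26 SE (adjusted p = 0.565), and Nsd1, a methyltransferase, 0.09 ± 0.23 SE (adjusted p = 0.833). Nsd1 had 72.1, 72.9 and 105 CPM in washed, 63.4, 87.7 and 91.1 CPM in doxycycline and 67.0, 67.8 and 92.5 CPM in untreated clones, with overlapping groups.

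Of the 3 lysine demethylases, none passed with edgeR in doxycycline or after washout, without or with the block. Of all genes 10.9% and 9.66% passed without the block, and 24.8% and 22.9% with it. For washed against doxycycline 1 of 3, Kdm1a, had an unadjusted p under 0.05, beside 26% of all genes. Kdm1a, the LSD1 demethylase, had 86.5, 77.1 and 92.0 CPM in washed, 65.4, 60.1 and 72.1 CPM in doxycycline and 74.5, 78.6 and 95.2 CPM in untreated clones. Its doxycycline libraries were below all others, with log2 fold changes of -0.33 ± 0.16 SE against untreated (adjusted p = 0.224) and 0.37 ± 0.16 SE for washed against doxycycline (adjusted p = 0.183). Kdm6a, an X-linked demethylase of the Polycomb mark, gave -0.18 ± 0.17 SE in doxycycline against untreated (adjusted p = 0.528). Kdm6b, its relative, was the most uneven, at 34.2, 167 and 99.0 CPM in washed, 45.5, 156 and 66.6 CPM in doxycycline and 120.2, 167 and 94.8 CPM in untreated clones.

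Of the 7 deacetylases, remodellers and other genes 0 passed with edgeR in doxycycline or after washout, without or with the block. Of all genes 10.9% and 9.66% passed without the block, and 24.8% and 22.9% with it. At an unadjusted p under 0.05 without the block there were 0 of 7, beside 27.2% and 26% of all genes. With 7 genes, 0 calls do not set this group apart from all genes. Hdac1 had 59.0, 65.0 and 46.0 CPM in washed, 75.4, 65.9 and 63.5 CPM in doxycycline and 44.2, 63.2 and 47.1 CPM in untreated clones (doxycycline against untreated 0.41 ± 0.20 SE, adjusted p = 0.224). Its paralog Hdac2 had 167, 96.2 and 112 CPM in washed, 109, 62.1 and 91.6 CPM in doxycycline and 114, 102 and 122 CPM in untreated clones (-0.36 ± 0.26 SE, adjusted p = 0.407). With the block and without untreated clone 1, Hdac2 was at -0.59 in doxycycline (adjusted p = 0.0359) and 0.51 after washout (0.0268). Hdac3 stood at 104 CPM in all 3 doxycycline clones, with 80.0 to 102 CPM in washed and 74.7 to 99.9 CPM in untreated clones. Chd4 had 632 ± 12.5 CPM in washed, 674 ± 14.8 CPM in doxycycline and 644 ± 18.7 CPM in untreated cells, a log2 fold change of 0.07 ± 0.16 SE in doxycycline. Smarca4, an ATPase of SWI/SNF remodellers, had 299.8, 178 and 217 CPM in washed, 273, 265 and 267 CPM in doxycycline and 224, 189 and 231 CPM in untreated clones (doxycycline against untreated 0.32 ± 0.21 SE, adjusted p = 0.358). Its complex partner Arid1a had 225, 208 and 264 CPM in washed, 216, 314 and 274 CPM in doxycycline and 195, 240.0 and 238 CPM in untreated clones (0.26 ± 0.19 SE, adjusted p = 0.437).

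Beyond the 37 regulators, 176 of 183 further chromatin genes were tested, and 7 rose and 4 fell with doxycycline (16 and 9 with the block). These are 6.25% of the list beside 10.9% of all genes, and 14.2% beside 24.8% with the block. Without clone 4 the fit with no block called 0 of 12069 genes in doxycycline, so none of its calls given here was kept. After washout it called 4 of 12069 genes without clone 4. Polycomb partners gave 2 higher and 1 lower of 29. Cbx6, a reader subunit, averaged 80.9 ± 3.48 CPM in doxycycline and 41.0 ± 2.41 CPM in untreated cells (adjusted p = 0.00669), and Rybp, a subunit of variant Polycomb complexes, 23.6 ± 3.23 CPM in doxycycline and 10.2 ± 1.34 CPM in untreated cells (adjusted p = 0.0136). Pcgf6, which defines another variant complex, fell to 10.4 ± 1.35 CPM in doxycycline, against 20.5 ± 1.801 CPM in untreated cells (adjusted p = 0.0162). Among 28 deacetylase and corepressor genes 1 rose and 3 fell. Hdac10, a polyamine deacetylase, fell to 2.73 ± 0.44 CPM in doxycycline, against 14.0 ± 3.20 CPM in untreated cells (adjusted p = 0.00407). Rcor2, a CoREST scaffold that partners Kdm1a, fell to 11.5 ± 6.59 CPM in doxycycline, against 69.5 ± 19.9 CPM in untreated cells (adjusted p = 0.00924), while its paralog Rcor1, the gene of this group that rose, averaged 68.3 ± 3.89 CPM in doxycycline and 38.9 ± 2.95 CPM in untreated cells (adjusted p = 0.0323). Sap30, of the Sin3 complex, fell to 10.6 ± 2.82 CPM in doxycycline, against 29.0 ± 4.89 CPM in untreated cells (adjusted p = 0.00924).

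The remaining genes that rose were 1 in each of 4 groups. Brd9, a bromodomain subunit of a SWI/SNF complex, averaged 61.8 ± 7.46 CPM in doxycycline and 32.2 ± 4.26 CPM in untreated cells (adjusted p = 0.0120). Ncoa3, a nuclear receptor coactivator, averaged 49.9 ± 8.39 CPM in doxycycline and 25.6 ± 2.15 CPM in untreated cells (adjusted p = 0.0257), Ncoa6, a subunit of KMT2 complexes, 89.8 ± 17.8 CPM in doxycycline and 54.2 ± 2.40 CPM in untreated cells (adjusted p = 0.0361), and Kdm3b, a demethylase, 182 ± 2.69 CPM in doxycycline and 129 ± 3.58 CPM in untreated cells (adjusted p = 0.0461). After washout 4 of the 176 were higher and 4 lower than in doxycycline, 4.55% of the list beside 9.66% of all genes: Pcgf6, Hdac10, Rcor2 and Sap30 higher, and Cbx6, Rybp, Ncoa3 and Brd9 lower. Hdac10 averaged 13.3 ± 4.19 CPM in washed and 2.73 ± 0.44 CPM in doxycycline cells (adjusted p = 0.00462).

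Washed cells were set against untreated cells to ask whether 14 days of doxycycline left a difference 14 days after its removal. None of the 37 regulators and 0% of all genes passed with edgeR, without or with the block, or with DESeq2 or limma voom, and at an unadjusted p under 0.05 edgeR gave 0 regulators and 38 of 12004 genes (0.317%). This share, and the 98 genes with the block, lie well below the 0.05 that a test gives where no gene differs. The 0 calls therefore do not show a full return. Log2 fold changes of the regulators ran from -0.62 ± 0.85 SE for Tet1 to 0.49 ± 0.30 SE for Bmi1, with a median of 0.05, and 36 of 37 lay within 1.5-fold. Washed and untreated libraries overlapped for all 37, while 2.36% of all genes did not overlap (1.31% higher and 1.05% lower). For doxycycline against untreated 11 regulators were higher and 4 lower without overlap, beside 20.4% and 18.5% of all genes (38.9% in either direction), and for washed against doxycycline 2 were higher and 6 lower, beside 11.8% and 14.5% (26.4% in either direction). The median SE of the washed to untreated log2 fold changes was 0.23. The clones were uneven: in clone 1 washed to untreated log2 ratios were -2.03 for Tet2, -1.87 for Ezh1, -1.82 for Kdm6b and 1.12 for Dnmt1, and in clones 2 and 4 these 4 genes lay between -0.40 and 0.55.

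Levels that stayed particular to a clone were tested with condition and clone in 1 model. edgeR called 0 of 37 regulators and 0% of all genes, though 11 regulators and 4501 genes (37.5%) had an unadjusted p under 0.05. Without untreated clone 1, it called 11 of 37 regulators, beside 29.8% of all genes: Kdm6b (adjusted p = 0.00362), Dnmt1 (adjusted p = 0.00698), Ezh1, Bmi1, Tet2, Tet1, Idh2, Hdac2, Ezh2, Phf6 and Dnmt3b. Averaged over conditions, Kdm6b had 66.6 CPM in clone 1 (39.8 CPM without the untreated library), 163 CPM in clone 2 and 86.8 CPM in clone 4, and Dnmt1 had 382 CPM in clone 1 (469 CPM without the untreated library), 187 CPM in clone 2 and 302 CPM in clone 4. Without washed clone 1 it called 2 regulators and 1788 genes. Because all values are from bulk RNA, fewer cells of a kind and less RNA per cell cannot be told apart.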

How the data were processed

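RNA was sequenced from 9 libraries, 3 clones in each of 3 conditions. The submitters' processing notes name featureCounts, limma 3.22.0, edgeR 3.8.2, CASAVA 1.8.2 and mm10; aligner, annotation version and strand setting were not given in the sources used here, so reads of overlapping antisense or near-identical genes cannot be told apart. Per the file headers, the deposited unit is the raw read count of each Entrez gene, beside a gene length in bases. RefSeq names and coordinates (GRCm38.p6) matched 25275 of 27179 entries. After filterByExpr, 12004 genes were scaled by TMM and tested two-sided with edgeR 4.0.16 (R 4.3.3), by quasi-likelihood on group means over all libraries, with Benjamini-Hochberg adjustment at 0.05. SE is the log2 fold change over the square root of F. Without the clone as a block, p-values measure spread between clones of 1 line. With the block, they measure how unevenly the difference between conditions runs from clone to clone.

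Clone numbers name the same clone in each condition and so pair the libraries; deviations from group means correlated at 0.29 to 0.68 between libraries of a clone. Alternatives were a clone block, RLE or library-size scaling, no filter, at least 5 CPM in 3 libraries, DESeq2 1.42.0, limma voom (limma 3.58.1), the 2 groups alone, leaving out each clone or library, and dropping entries without a symbol. Removing each library's gene-length trend, and the block without untreated or washed clone 1, were added after seeing the data. The code was tested on simulated counts. The members and lists were chosen with earlier results of these data known. Values are given library by library for regulators past the threshold without or with the block or with the smallest p of their role group in a contrast. Dnmt1, Tet2, Ezh2, Suz12, Phf6, Hdac3, Chd4 and Kmt2a were also picked out after their values were seen. Of the further chromatin genes, those that passed were named, up to 3 of smallest p per role group, with Rcor1 added after its value was seen.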

Additional observations from a re-analysis of the deposited data

How the results depend on the processing

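With the clone as a block, doxycycline against untreated called 5 regulators and 2976 genes, in place of 2 and 1311, and washed against doxycycline 6 and 2744, in place of 1 and 1160. Washed against untreated called 0 under every alternative run. For doxycycline against untreated, DESeq2 called 4 regulators and 2138 genes, and the 2 groups alone 3 and 2026. Scaling by library size alone called 0 and 1053, no filter 1 and 1185, and limma voom 1 and 1138. For washed against doxycycline, DESeq2 called 3 and 1967, the 2 groups alone 0 and 324, and library size alone 0 and 648.

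Leaving out 1 clone or library gave 0 (without clone 2 or 4, for example) to 3 regulators (without washed clone 1) and 0 (without clone 4) to 2258 genes (without washed clone 1) for doxycycline against untreated, and 0 to 3 regulators and 4 to 1814 genes for washed against doxycycline. With the block, leaving out clones 1, 2 and 4 in turn called 13, 1 and 0 regulators and 4117, 623 and 360 genes for doxycycline against untreated, and 16, 0 and 0 regulators and 4325, 421 and 320 genes for washed against doxycycline. Chosen after seeing the data, the block without untreated clone 1 called 6 and 2414, and 9 and 3561, in these contrasts, and without washed clone 1 12 and 4732, and 10 and 3820. The block with the gene-length trend removed, also added then, called 5 and 2915, and 7 and 2714. The clone difference called 0 regulators and 0 genes, but 74 genes with RLE, 1 and 1140 with library size alone, 2 and 1664 without the filter, and from 0 and 0 up to 11 and 3666 when 1 library was left out, the most without untreated clone 1. The causes were not tested.

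With 3 clones per group the median SE of the regulators' log2 fold changes was 0.23, and Tet1 rests on 0 to 84 counts per library. No called result changed sign; among regulator values not called, 26, 42 and 159 of 1036 changed sign over the alternatives in doxycycline against untreated, washed against doxycycline and washed against untreated.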
